A study of Mesocricetus auratus with 38 samples.

Results

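The genes described here make or dispose of nicotinamide adenine dinucleotide (NAD+) from nicotinamide riboside (NR) and the other vitamin B3 forms, in the liver of hamsters that received NR as part of a supplement. They were chosen by gene symbol from 10 named enzymes: Nmrk1, Nampt, Naprt, Nadsyn1, Nmnat1, Nmnat3, Qprt, Nnmt, Nadk and Nadk2. Of the 14631 genes in the count and TPM tables, 8 were members of this list. Naprt and Nadk were not among the genes of the tables and were not analysed here. Of the 8 genes present, 7 had enough reads to be tested, and Nnmt did not.

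Hepatic RNA of 38 male Golden Syrian hamsters, all 22 weeks old by the labels, was sequenced, and each library was taken as 1 animal. The control group (9 libraries) ate a chow with 11% of its calories as fat. Animals of the HFD group (10 libraries) received a placebo and were kept for 12 weeks on feed with added cholesterol in which fat gave 23% of the calories. Dose I (HFD + MI_D1, 9 libraries) and Dose II (HFD + MI_D2, 10 libraries) ate the same HFD and received, during the last 4 weeks, combined metabolic activators (CMA). At Dose I the CMA held 200 mg/kg each of NR, L-carnitine (given as its tartrate salt) and N-acetyl-L-cysteine and 400 mg/kg of betaine. At Dose II it held 400 mg/kg each of NR, L-carnitine and N-acetyl-L-cysteine and 800 mg/kg of betaine. No group received NR alone, so NR and the other parts of the CMA cannot be told apart.

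Liver builds NAD+ along several routes that meet in few steps. NR is phosphorylated by Nmrk1 to nicotinamide mononucleotide, the same product that Nampt makes from nicotinamide, and the Nmnat enzymes turn it into NAD+. Naprt and Qprt feed nicotinic acid and quinolinic acid, the latter from tryptophan, into a deamidated branch that Nadsyn1 completes, NAD kinases convert NAD+ to NADP+, and Nnmt methylates nicotinamide for excretion. The question asked of the data was whether the transcripts of these enzymes differed between the diets and with the CMA.

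The libraries held between 4.08e+06 and 1.04e+07 estimated counts. One control library, C105, stood apart on the first principal component, at 19.1 against -23.0 to -12.8 in the other 8 controls. The study removed 1 control after the same kind of plot without naming it. DESeq2 without C105 called 1669 genes that rose and 1648 that fell in HFD against control. At Dose II against HFD it called 373 and 268. These counts equal those the study printed. The values below therefore come from 37 libraries, and those with C105 are given beside them. The libraries also differed in a length trend, the Spearman correlation across genes between gene length and the deviation of a library from the mean of all libraries. It was 0.11 to 0.34 in the 8 controls, -0.20 to 0.17 in the HFD group, -0.26 to 0.13 in Dose I, -0.28 to 0.11 in Dose II and -0.35 in C105. Hepatocyte markers summed to between 1.93e+05 and 2.37e+05 CPM (counts scaled to a common library total) in the controls and between 1.27e+05 and 1.87e+05 in the HFD group, and 1 of the 8 rose and 3 fell. The 9 measured Kupffer cell and macrophage markers summed to 186 to 260 CPM in the controls and 270 to 448 CPM in the HFD group, and 6 of the 9 rose, beside the same 36.2%. At Dose II, where they summed to 189 to 356 CPM, 5 of the 9 fell compared to the HFD group, beside 5.63% of all genes that passed. In these bulk samples, fewer cells of a type and less RNA per cell cannot be told apart, and the part of cell makeup in the results below was not tested.

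TPM, the deposited transcript abundances scaled by transcript length and library total, allow levels to be compared between genes. Over the 37 libraries, Nadk2 was at 151 TPM ± 42.5 (SD), above every other member. Qprt followed at 35.2 ± 9.10 TPM, Nampt at 30.0 ± 5.81 TPM, Nmnat1 at 25.9 ± 3.84 TPM and Nmrk1 at 23.8 ± 3.81 TPM, and neighbours in this order overlapped within 1 SD. Nadsyn1 was at 11.6 ± 1.75 TPM, Nmnat3 at 3.02 ± 0.776 TPM and Nnmt at 0.854 ± 0.641 TPM. The height of Nadk2 and Nmnat1 in this order rests on the annotated lengths, since 1 TPM stood for 3.76 estimated counts of Nadk2 and 3.89 of Nmnat1 but for 23.2 of Nampt. On the CPM scale, where length is not divided out, Nampt was the highest member at 117.1 CPM ± 14.3, followed by Nadk2 at 95.9 CPM ± 25.04. Of the sister genes outside the list, the NR kinase Nmrk2 was at 0.392 TPM and at 0 in 22 of 37 libraries, and the adenylyltransferase Nmnat2 was at 0.159 TPM and at 0 in 19 of 37.

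**Figure D1:**
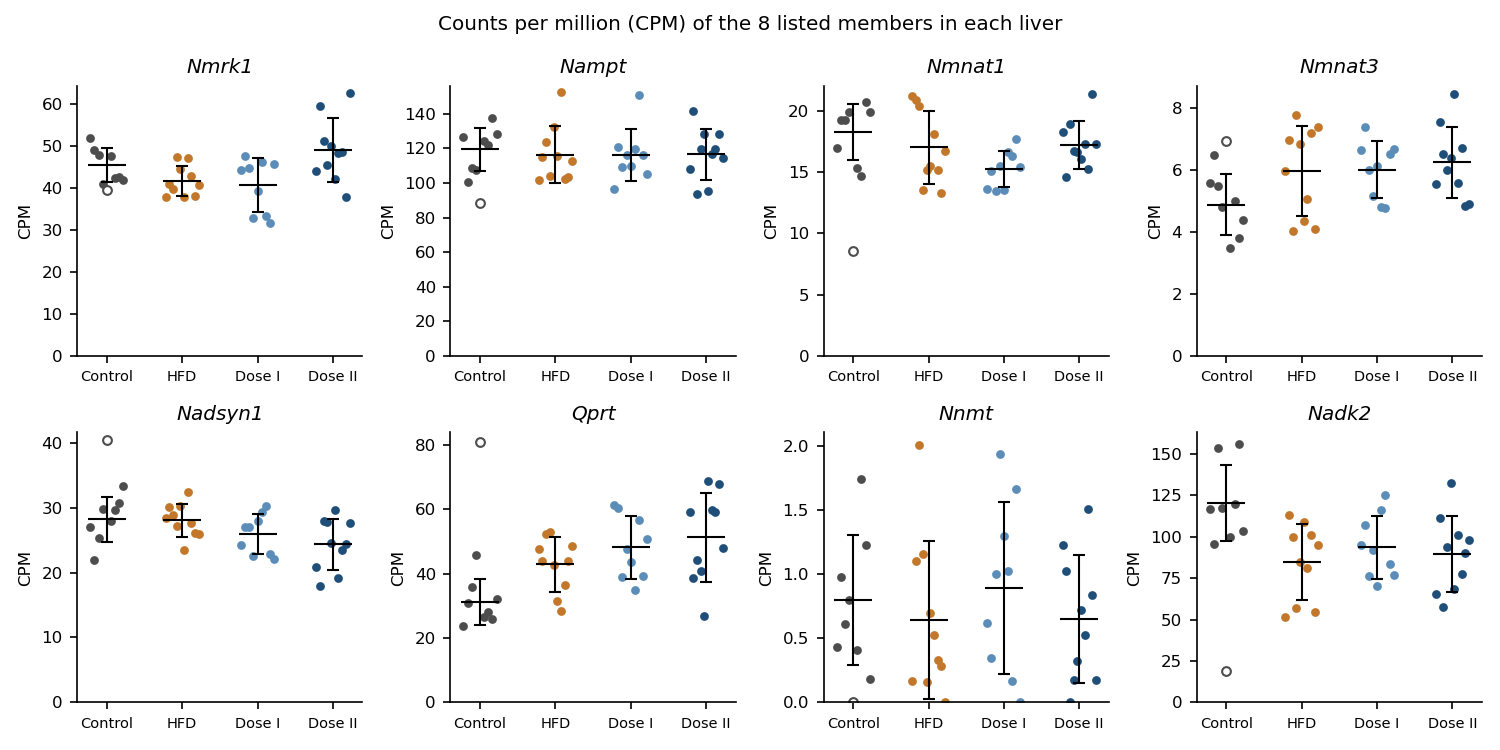
CPM of the 8 members present in the tables, 1 point per liver, by group; the horizontal line and bars are the mean ± SD over 8 control, 10 HFD, 9 Dose I and 10 Dose II libraries, and the open circle is control C105, which the means leave out. Qprt and Nadk2 differed between the control and HFD groups, Nmrk1 had its highest values at Dose II, and C105 lay far from the other controls for Qprt, Nmnat1 and Nadk2.

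Compared to the control group, the HFD group had more Qprt RNA and less Nadk2 RNA, and the other 5 tested members did not pass the threshold of an adjusted p of 0.1 (edgeR quasi-likelihood test with Benjamini-Hochberg adjustment, as throughout). These 2 of 7 members stood against 36.2% of all 9099 tested genes that passed in the same comparison, so the share of members that changed was not above that of genes at large. The median log2 fold change of the 7 was -0.04, beside 0.01 over all tested genes.

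Nadk2, the mitochondrial NAD kinase, ranged from 95.3 to 156.1 CPM in the controls with a median of 117.3 CPM. In the HFD group it ranged from 51.8 to 112.8 CPM with a median of 89.75 CPM. All 10 HFD livers lay below the control median, although the groups overlapped. The log2 fold change of Nadk2 was -0.51 with an SE of 0.15 (adjusted p = 0.0130), a 0.704-fold level. Control C105 had 19.2 CPM, lower than any other liver, and with it the difference was -0.37 (SE 0.20, adjusted p = 0.260).

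Qprt, which brings quinolinic acid from tryptophan breakdown into NAD+ synthesis, ranged from 23.6 to 45.9 CPM in the controls with a median of 29.6 CPM. The HFD group ranged from 28.2 to 52.98 CPM with a median of 43.8 CPM. The groups overlapped, and 9 of 10 HFD livers were above the control median. Its log2 fold change was 0.45 with an SE of 0.15 (adjusted p = 0.0247), a 1.37-fold level. Control C105 had 80.9 CPM, above every other library, and with it the difference was 0.23 (SE 0.18, adjusted p = 0.446). With all 38 libraries, then, 0 of the 7 members passed, and none had an unadjusted p under 0.05, while 15.6% of all genes still passed.

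Nadk2 also followed the length trend within the groups. Over 37 libraries, deviations of log2 CPM from the group means correlated with the trend at Pearson r = 0.72 and Spearman rho = 0.72 (permutation p = 1e-05 for each, the smallest that 100000 resamples can give, adjusted p = 8e-05 over the 8 relations tested). The correlation was 0.58 in the controls, 0.70 in the HFD group, 0.71 at Dose I and 0.86 at Dose II, and r was 0.69 without the 2 libraries farthest from the median of Nadk2. For Qprt the relation did not pass (r = -0.30, rho = -0.25, permutation p = 0.0904 and 0.160, adjusted p = 0.181 and 0.320), with -0.79 at Dose II and values from -0.08 to 0.28 in the other groups. When the trend was added to the edgeR model as a covariate, Nadk2 differed between HFD and control by -0.06 (SE 0.13, adjusted p = 0.839) and Qprt by 0.28 (SE 0.18, adjusted p = 0.386). In that model no member passed or had an unadjusted p under 0.05 for the diet, while 10.1% of all genes passed. The controls other than C105 had the highest trends and overlapped little with the HFD group, so diet and trend cannot be fully told apart. Removing the trend from each library by its fitted curve against length instead left both calls in place (Nadk2 -0.65, adjusted p = 0.00518, and Qprt 0.40, adjusted p = 0.0473) and added Nmnat1 at -0.26 (adjusted p = 0.0505).

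**Figure D2:**
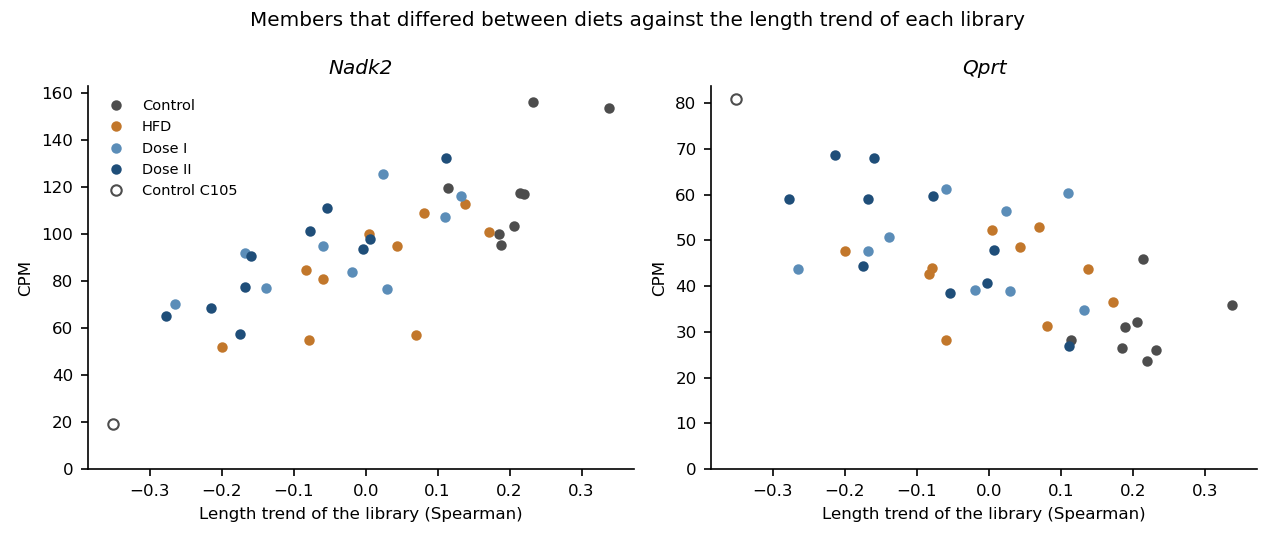
CPM of Nadk2 and Qprt in each liver against the length trend of its library (Spearman correlation across genes between length and deviation from the mean library), coloured by group, with control C105 as an open circle. Nadk2 rose with the trend in every group, C105 lay at the low end of the trend at -0.35, and the controls other than C105 lay between 0.11 and 0.34.

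The remaining members gave small differences between the diets. Nmnat3, the mitochondrial adenylyltransferase, was at 4.87 ± 0.983 CPM in the controls (n = 8) and 5.96 ± 1.46 CPM in the HFD group (n = 10), a log2 difference of 0.30 with a 95% interval of -0.0031 to 0.60 (edgeR adjusted p = 0.129). Nmrk1, the NR kinase, was at 45.5 ± 4.03 and 41.6 ± 3.65 CPM, a difference of -0.13 (interval -0.31 to 0.06, edgeR adjusted p = 0.308). Nmnat1, the nuclear adenylyltransferase, differed by -0.11 (interval -0.30 to 0.08) and passed only with the trend removed as above. Nadsyn1, the glutamine-dependent NAD synthetase, differed by -0.01 (interval -0.19 to 0.17).

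Nampt, usually regarded as the rate-limiting enzyme of nicotinamide salvage, gave different answers on the count and TPM scales. Its CPM ranged from 100.8 to 137.8 in the controls (median 123.2) and from 101.5 to 152.9 in the HFD group (median 113.9), and these ranges overlapped. On counts the log2 difference was -0.04 (interval -0.21 to 0.14, edgeR adjusted p = 0.786). On the TPM scale the controls ranged from 29.2 to 41.3 (median 36.1) and the HFD group from 21.6 to 34.1 (median 30.3), and the HFD group was lower by -0.31 on the scale of log2(TPM + 1) (SE 0.11, limma adjusted p = 0.0325). TPM of Nampt was lower than in the controls at Dose I too (-0.34, limma adjusted p = 0.0196) and at Dose II (-0.38, limma adjusted p = 0.00543), all 3 against the same controls. Over all 9099 genes the medians of these fits were -0.01 for HFD, -0.07 for Dose I and -0.08 for Dose II, and 1767, 2469 and 2821 genes fell while 1420, 1330 and 1555 rose. The calls for Nampt rested on leaving out C105, which at 14.2 TPM was lower than any other library. With it, limma gave -0.17 for HFD (SE 0.14, adjusted p = 0.473), -0.20 for Dose I (adjusted p = 0.377) and -0.24 for Dose II (adjusted p = 0.211), fits added after the data had been seen.

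What separated the scales was the number of estimated counts that 1 TPM of Nampt stood for, which follows the length that the quantification assigned to the gene. It ranged from 17.8 to 21.9 in the 8 controls (median 19.8), from 19.8 to 26.3 in the HFD group (median 24.6), between 20.1 and 25.8 at Dose I and between 21.2 and 26.3 at Dose II, on a scale set to the median gene of each library. The HFD group was higher than the controls by 0.27 on the log2 scale (SE 0.065, two-sided exact permutation p = 0.00210, adjusted p = 0.00631 over 3 comparisons), and only 0.38% of 6056 genes differed by as much. With C105, which had 26.3 like the highest HFD livers, the difference was 0.22 (exact permutation p = 0.0131, adjusted p = 0.0394). The ratio did not differ detectably between Dose I and HFD (-0.04, SE 0.063, exact permutation p = 0.579) or between Dose II and HFD (-0.0018, SE 0.061, permutation p = 0.977). Within groups it fell as the length trend rose (r = -0.57, permutation p = 0.00037, rho = -0.61, permutation p = 9e-05, adjusted p = 0.00148 and 0.00036, r = -0.54 without the 2 libraries farthest from the median ratio). For the other members it moved less: the mean was 3.63 in the controls and 3.66 in the HFD group for Nadk2, 7.10 and 7.11 for Qprt, 10.68 and 10.70 for Nmrk1, and 11.4 and 10.8 for Nmnat3. The tables hold 1 value per gene and no transcripts, so which Nampt transcripts the ratio follows was not tested.

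**Figure D3:**
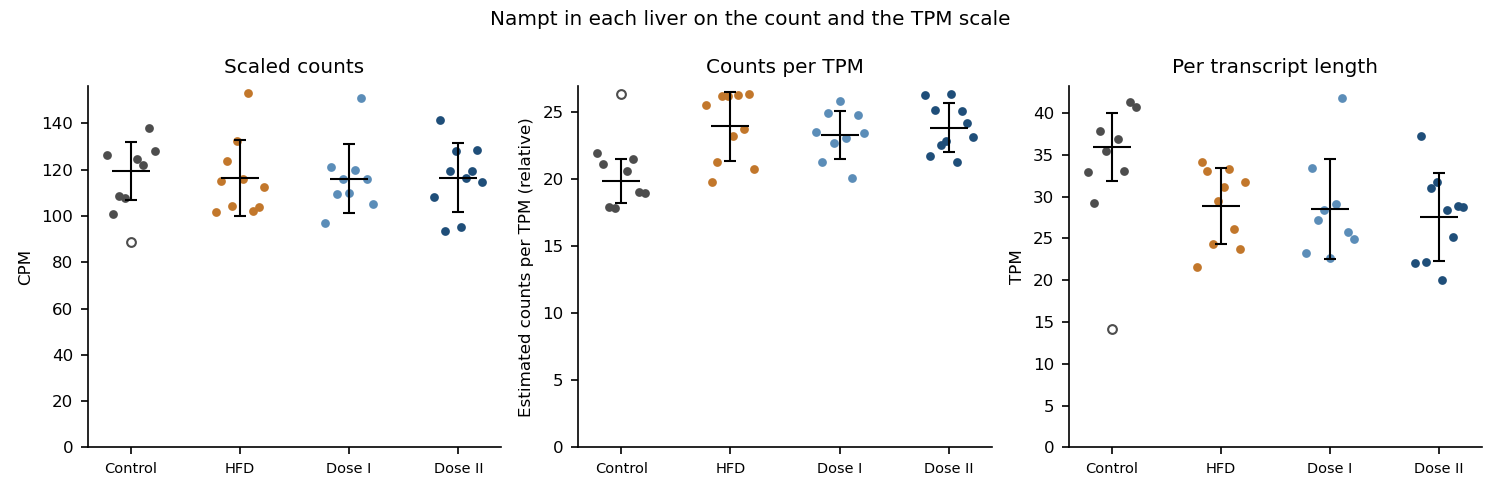
Nampt in each liver by group as CPM (left), as estimated counts per TPM on a scale relative to the median gene of the library (middle) and as TPM (right), with the mean ± SD without control C105, the open circle. CPM overlapped between all groups, counts per TPM were lowest in the 8 controls at 17.8 to 21.9, and TPM was 29.2 to 41.3 there, with 1 Dose I liver above that range at 41.9.

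With the CMA at Dose I, none of the members passed against the HFD group (0 of 7 by edgeR, beside 0.187% of all tested genes). None had an unadjusted p under 0.05 by edgeR, beside 9.28% of all genes, and DESeq2 called none. The log2 differences ran from -0.15 for Nmnat1 (interval -0.34 to 0.03) to 0.17 for Qprt (interval -0.13 to 0.47). Nmrk1 was at -0.03 (interval -0.21 to 0.14), so a rise of more than 0.14 lay outside its 95% interval. Over the whole table, edgeR called 17 of 9099 genes in this comparison, and DESeq2 called 56 that rose and 24 that fell.

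Dose II left 0 of 7 members past the threshold as well, beside 5.63% of all tested genes, and DESeq2 also called none. Beside 18.6% of all genes with an unadjusted p under 0.05 by edgeR, 2 members reached that level, by DESeq2 as well. Those were Nmrk1 and Nadsyn1, in opposite directions. Nmrk1 ranged from 37.7 to 47.2 CPM in the HFD group (median 40.7), between 31.7 and 47.5 CPM at Dose I (median 44.2) and between 37.7 and 62.6 CPM at Dose II (median 48.4). The groups overlapped, and 9 of the 10 Dose II livers were above the HFD median. Relative to HFD the log2 difference at Dose II was 0.23 (SE 0.084, interval 0.06 to 0.40), with an unadjusted p of 0.0103 and an adjusted p of 0.132 by edgeR. The Dose II livers were also spread more widely, with an SD of 7.56 CPM against 3.65 CPM in the HFD group.

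The length trend changed the call for Nmrk1. With the trend as a covariate, an alternative chosen after the data had been seen, the difference was 0.29 (SE 0.085, edgeR adjusted p = 0.0477), beside 5.68% of all genes that passed. With the trend removed by its fitted curve it was 0.22 (edgeR adjusted p = 0.174). On TPM it was 0.14 (limma adjusted p = 0.402), in a fit whose median over all genes was -0.06. The estimated counts of Nmrk1 were not whole numbers in any library within a tolerance of 0.01, whereas those of the other 7 members present were whole in every library, so part of its reads was shared between features and its values carry that uncertainty.

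Nadsyn1 ranged from 23.5 to 32.4 CPM in the HFD group (median 28.0), between 22.1 and 30.3 CPM at Dose I (median 27.0) and between 17.99 and 29.6 CPM at Dose II (median 24.5). One of the 10 Dose II livers was above the HFD median. The difference between Dose II and HFD was -0.21 (SE 0.085, interval -0.38 to -0.04, edgeR adjusted p = 0.168). On the TPM scale it was -0.27 and passed (limma adjusted p = 0.0736), but not with C105 in the fit (-0.27, limma adjusted p = 0.115). Over all 9099 genes that TPM fit of 37 libraries had a median of -0.06, with 151 genes that rose and 439 that fell.

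Qprt and Nadk2, the members that differed between the diets, were not detectably different at Dose II from the HFD group. Qprt ranged from 26.8 to 68.7 CPM at Dose II (median 53.4), with a log2 difference of 0.26 (interval -0.03 to 0.54, edgeR adjusted p = 0.334). Nadk2 ranged from 57.5 to 132.4 CPM (median 92.1), with a difference of 0.07 (interval -0.22 to 0.37, edgeR adjusted p = 0.839). Nampt differed by -0.0041 on counts (interval -0.17 to 0.16), Nmnat1 by 0.02 (interval -0.17 to 0.20) and Nmnat3 by 0.07 (interval -0.21 to 0.34).

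**Figure D4:**
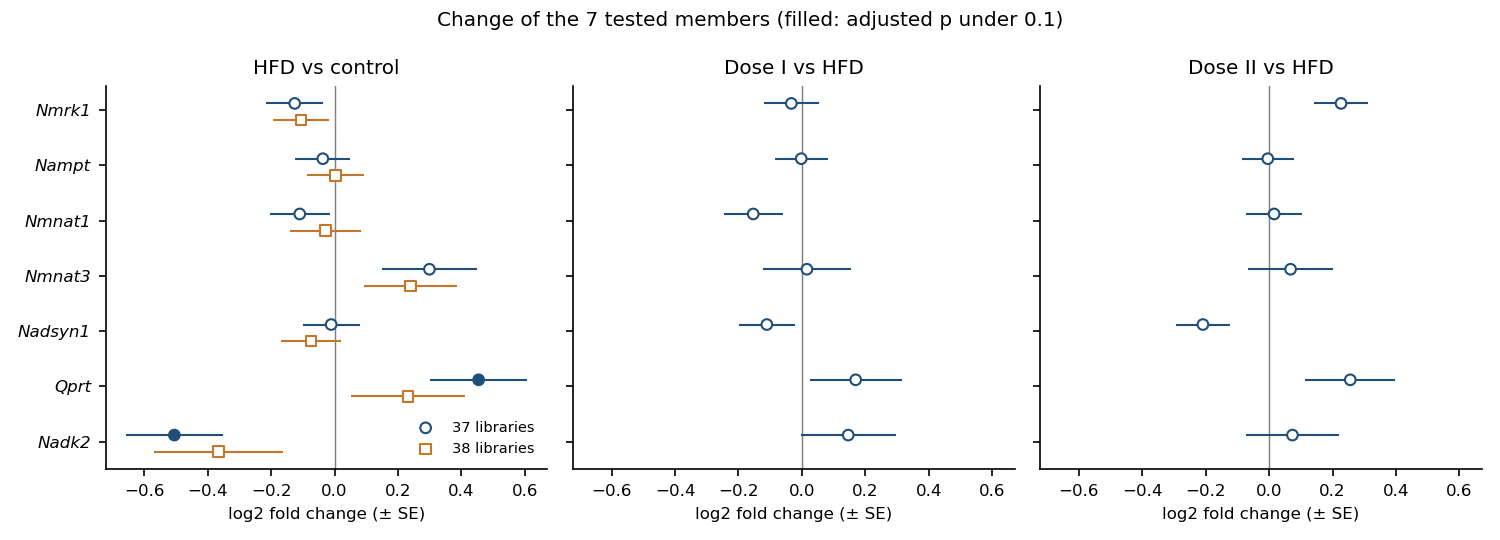
Log2 fold change ± SE of the 7 tested members in HFD against control, Dose I against HFD and Dose II against HFD, with filled symbols for an edgeR adjusted p under 0.1; circles are fits of 37 libraries and squares, in the left panel, the fit with control C105. Qprt at 0.45 and Nadk2 at -0.51 were filled in the left panel for 37 libraries and open for 38, and no member was filled in the other panels.

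Between the 2 doses, no gene of the whole table passed (0.0% of 9099 by edgeR, none by DESeq2 or limma). An unadjusted p under 0.05 by edgeR was found for 271 genes, or 2.98%, a smaller share than that cutoff gives where nothing differs. The rank that follows is therefore only a description. Nmrk1 stood 9th of the 9099 genes by p-value in this comparison, higher at Dose II by 0.26 (SE 0.087, interval 0.08 to 0.44, unadjusted p = 0.00475 by edgeR, adjusted p = 0.9999). It was the only member with an unadjusted p under 0.05. When the 29 HFD-fed libraries were fitted against the NR dose of 0, 200 or 400 mg/kg, 0 of 7 members passed, beside 4.68% of 8933 genes. The slopes of Nmrk1 and Nadsyn1, the 2 members with an unadjusted p under 0.05, were 0.11 and -0.11 per 200 mg/kg (SE 0.045 and 0.042, edgeR adjusted p = 0.175 and 0.158). An unadjusted p under 0.05 by edgeR was found for this slope in 18.2% of all genes. DESeq2 called no member for this slope either.

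The CMA groups were also set against the controls, which the diet comparison shares. At Dose I, Qprt was higher by 0.62 (edgeR adjusted p = 0.00240), and Nadk2 and Nmnat1 were lower, at -0.36 (edgeR adjusted p = 0.0766) and -0.26 (edgeR adjusted p = 0.0342). These were 3 of 7 members, beside 40.7% of all genes. At Dose II, Qprt was higher by 0.71 (edgeR adjusted p = 0.000338) and Nmnat3 by 0.37 (edgeR adjusted p = 0.0443), while Nadk2 and Nadsyn1 were lower, at -0.43 (edgeR adjusted p = 0.0225) and -0.22 (edgeR adjusted p = 0.0494), and the 4 of 7 stood beside 47.4%. With C105 included, 0 members passed at Dose I, with 1 at an unadjusted p under 0.05 and beside 21.8% of all genes. At Dose II, Qprt (0.49, edgeR adjusted p = 0.0442) and Nadsyn1 (-0.28, edgeR adjusted p = 0.0280) passed with it, beside 32.9%. With the length trend as a covariate no member passed in either comparison (2 had an unadjusted p under 0.05 in each), beside 15.7% of all genes at Dose I and 16.1% at Dose II, and Nadk2 turned to 0.21 and 0.26, both short of the threshold.

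Nnmt, the nicotinamide methyltransferase, was too low to test, with 0 to 12 estimated counts per library. It was at 0.797 ± 0.509 CPM in the controls, 0.643 ± 0.618 CPM in the HFD group, 0.895 ± 0.669 CPM at Dose I and 0.651 ± 0.4997 CPM at Dose II, and at 0 in 3 of 37 libraries. A difference between groups was not detectable at this depth.

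Among themselves the members varied largely apart. Of 21 pairs of tested members, 1 passed an adjusted p of 0.05 on Pearson's r, over the deviations of 37 libraries from their group means. It was Nampt with Nadk2 (r = 0.54, permutation p = 0.00128, adjusted p = 0.0269, and rho = 0.50, permutation p = 0.00263, adjusted p = 0.0552). The correlation was 0.25 in the controls, 0.36 in the HFD group, 0.67 at Dose I and 0.81 at Dose II, and 0.56 without the 2 libraries farthest from the median of Nampt. The genes whose deviations were most like those of Nmrk1, among 5904 genes of at least 10 CPM, were Fkbp14, Wdr3, Ice2, Ngdn and Mbnl1, with r from 0.73 to 0.69 over 37 libraries. For Nampt they were Ccny, Rb1, Nptn, Rnf139 and Gphn, with r from 0.72 to 0.71. These are descriptions of the most similar profiles, and all points share the depth and length trend of their libraries.

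Tryptophan breakdown yields quinolinic acid, the substrate of Qprt. Of 10 tested genes of this route and its side branches, 4 fell in the HFD group compared to the controls and none rose, beside 36.2% of all genes that passed in either direction. Ido2, which opens the pathway, went from 28.2 ± 6.82 to 14.4 ± 4.23 CPM (log2 -0.97, edgeR adjusted p = 7.9e-05). Kynu, the kynureninase, was at -0.35 (edgeR adjusted p = 0.00286) and Kmo, the kynurenine hydroxylase, at -0.30 (edgeR adjusted p = 0.00564). These 3 lie on the way to quinolinic acid, whereas the remaining one, Acmsd, draws the pathway away from it and was at -0.82 (edgeR adjusted p = 0.0249). The aminotransferases Aadat, Kyat1 and Kyat3 of another side branch, which leads to kynurenic acid, did not pass. The median over the 10 was -0.26 beside 0.01 for all genes. The count was 4 with C105 too, beside 15.6% of all genes, and 3 with the length trend as a covariate, beside 10.1%, where Acmsd was at -0.48 (edgeR adjusted p = 0.425). At Dose II, 2 of the 10 passed compared to HFD, beside 5.63% of all genes. Tdo2, the main hepatic tryptophan dioxygenase, rose by 0.58 (edgeR adjusted p = 0.0817) and Afmid, the formamidase of the next step, by 0.27 (edgeR adjusted p = 0.0619). With C105 in the fit neither passed (edgeR adjusted p = 0.116 and 0.201).

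Of 4 tested genes for the supply and uptake of NR and nicotinamide, 1 passed in the HFD group against the controls, beside 36.2% of all genes. Nudt12, a peroxisomal enzyme that cleaves NADH to mononucleotides, fell from 61.7 ± 6.99 to 38.998 ± 5.03 CPM (log2 -0.66, edgeR adjusted p = 3.94e-05). It remained past the threshold with C105 (-0.54) and with the covariate (-0.41). Of 3 genes for the clearance of nicotinamide and its products, 2 passed in the HFD group, beside the same 36.2%. Aox1, an aldehyde oxidase, fell by 0.46 (edgeR adjusted p = 0.000138) and Cyp2e1 by 0.23 (edgeR adjusted p = 0.0135). None of the genes of these lists passed between Dose I or Dose II and HFD. Nt5e, an ecto-nucleotidase that can release NR from nicotinamide mononucleotide, passed for the slope on the NR dose, at -0.12 per 200 mg/kg (edgeR adjusted p = 0.0729). Its difference between Dose II and HFD was -0.23 (edgeR adjusted p = 0.109), and -0.25 with the covariate (edgeR adjusted p = 0.0961).

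The NAD+-consuming deacylases and ADP-ribosyltransferases were mixed in the HFD group: 5 of 16 rose and 2 fell, beside 36.2% of all genes that passed. Sirt2 rose by 0.54 (edgeR adjusted p = 2.61e-05), Sirt7 by 0.58 (edgeR adjusted p = 0.000524) and Parp10 by 0.44 (edgeR adjusted p = 0.00288), whereas Tnks, a tankyrase at only 1.25 ± 0.699 CPM in the HFD group, fell by 1.12 (edgeR adjusted p = 0.0184). With C105 the counts were 3 and 0, beside 15.6% of all genes, and with the covariate 4 and 1, beside 10.1%. The 1 that fell with the covariate was Sirt3 (-0.28, edgeR adjusted p = 0.0848), which the main fit had not called (-0.11, edgeR adjusted p = 0.375). Neither of the 2 that fell in the main fit passed there, and Tnks was at -0.32 (edgeR adjusted p = 0.684). At Dose II, 1 of the 16 passed compared to HFD, near the 5.63% of all genes. It was Sirt3, the mitochondrial deacetylase, which went from 46.7 ± 8.55 to 57.7 ± 6.76 CPM (log2 0.30, edgeR adjusted p = 0.0486, and 0.137 with the covariate).

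Among 6 tested genes for NAD(P) transport and repair, 2 passed in the HFD group against the controls, beside 36.2% of all genes. Hddc3, an NADPH phosphatase, and Nudt19 rose by 0.24 each (edgeR adjusted p = 0.00372 and 0.0605), and neither passed with C105. Naxd, which repairs hydrated NADH and NADPH, was the 1 of 6 that passed at Dose II against HFD, beside 5.63% of all genes. It rose from 58.4 ± 4.76 to 69.6 ± 5.46 CPM (log2 0.25, edgeR adjusted p = 0.0223, and 0.108 with C105). Of 3 tested genes of methyl supply next to Nnmt, 1 passed at each dose against HFD, beside 0.187% of all genes at Dose I and 5.63% at Dose II. Gnmt, the glycine N-methyltransferase, rose from 1174 ± 306 CPM in the HFD group to 2054 ± 784 CPM at Dose I (log2 0.81, edgeR adjusted p = 0.0924) and 2801 ± 617 CPM at Dose II (log2 1.25, edgeR adjusted p = 0.00016). With C105 the call at Dose I was lost (edgeR adjusted p = 0.124) and that at Dose II held (edgeR adjusted p = 0.000171). In the HFD group Mat1a, which makes S-adenosylmethionine, was at -0.30 compared to the controls (edgeR adjusted p = 0.0196), 1 of the 3 beside 36.2% of all genes.

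**Figure D5:**
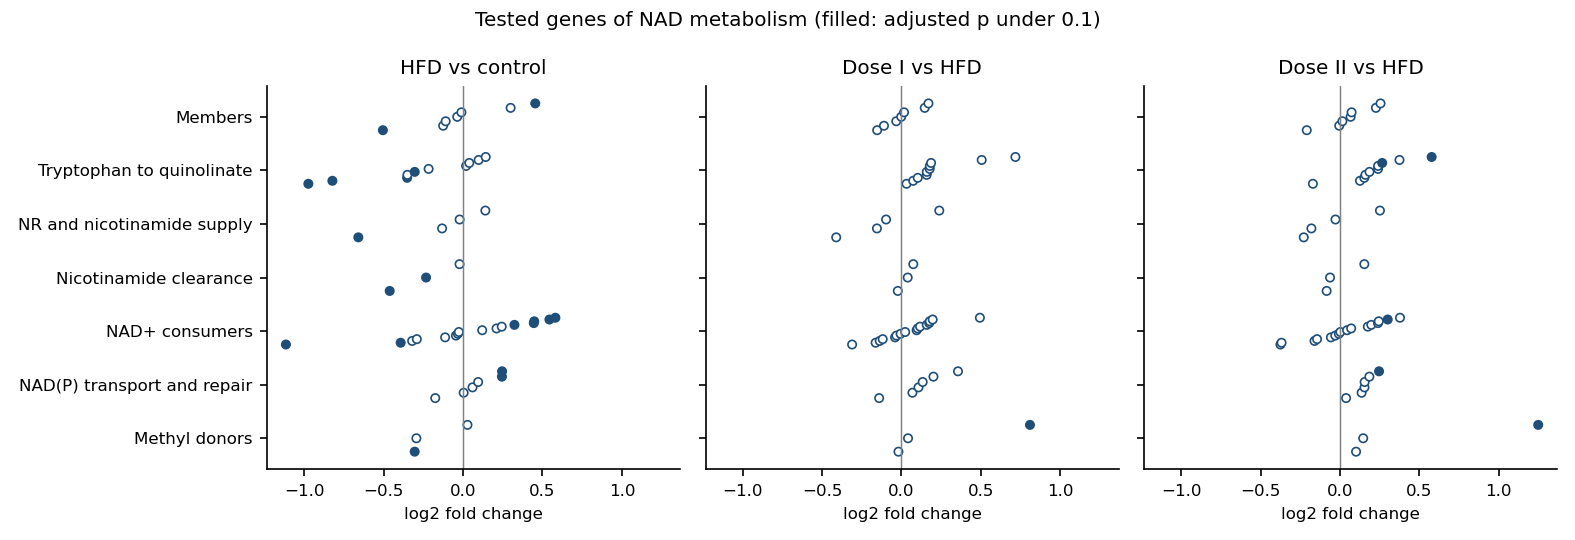
Log2 fold change of each tested gene of NAD metabolism, 1 point per gene, by list, in HFD against control, Dose I against HFD and Dose II against HFD, with filled points for an edgeR adjusted p under 0.1 in 37 libraries. In the left panel 4 of 10 genes of the route from tryptophan to quinolinic acid and its side branches were filled on the negative side, and in the middle and right panels Gnmt lay farthest to the right at 0.81 and 1.25.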

How the data were processed

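Liver RNA of 38 hamsters was measured by RNA-seq. The authors quantified reads with kallisto against MesAur1.0 (release 101) and deposited estimated counts, not normalized and summed to gene symbols, and TPM, which divide those counts by transcript length and total. Groups came from the labels, doses and diets from the study's methods. The members and lists were chosen with earlier results of these data known. All 10 member symbols matched a RefSeq gene name, and no sequence or coordinate was used.

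Estimated counts were rounded, filtered with filterByExpr, scaled by TMM and fitted on all genes with edgeR 4.0.16 (R 4.3.3) in 1 quasi-likelihood model over 37 libraries with 33 residual degrees of freedom. Intervals are 95% and apply to the log2 fold change. The threshold was an adjusted p of 0.1, as in the study, and an adjusted p of 0.05 for correlations. CPM use TMM library sizes, and correlations used log2 CPM with a prior count of 2 and 100000 resamples within groups. TPM were tested with limma 3.58.1 on log2(TPM + 1), which understates the change of low genes. The labels name no animal, so p-values measure the spread between these libraries. Total estimated counts per library ranged from 4.08e+06 to 1.04e+07, which puts a gene at 1 CPM at a few counts.

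Alternatives were all 38 libraries, DESeq2 1.42.0, RLE scaling, no filter or a filter of 10 counts in every library, only the groups compared, removal of the length trend, TPM, and a threshold of 0.05. Added after the data had been seen were the length trend as a covariate, its relation to the members, the counts per TPM of Nampt, a pseudocount of 0.1 and TPM over all 38 libraries. Relative length was taken as estimated counts over TPM. The scripts were tested on simulated data. Named genes were all members, up to 4 genes per list and comparison with the smallest adjusted p among those that passed, and the 5 genes most like Nmrk1 and Nampt.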

Additional observations from a re-analysis of the deposited data

Results flagged for a closer look

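In groups of 9 or 10 libraries, 32 combinations of member and group were checked for a library whose gap to its nearest neighbour, divided by the range of the group, was above Dixon's 95% value, and 4 were found. Chance gives about 5% of such groups. Control C105 had 80.89 CPM of Qprt, 8.51 CPM of Nmnat1 and 19.16 CPM of Nadk2, each beyond all other controls. These 3 come from the library that stood apart on the first principal component, had the lowest length trend and had the most Kupffer cell and macrophage marker RNA, at 508 CPM summed, and their part in these values was not tested. Within Dose I, library DI126 had 150.75 CPM of Nampt, above the other 8.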

How the results depend on the processing

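No paired analysis was possible because the replicate numbers of the labels are unique to each library and shared by no groups. Counts of members that passed, with the main values of 2 (HFD against control), 3 (Dose I against control), 4 (Dose II against control), 0 (Dose II against HFD) and 0 (slope on NR dose), moved as follows. With all 38 libraries they were 0, 0 and 2 for the comparisons with the controls, beside 15.6%, 21.8% and 32.9% of all genes. With the length trend as a covariate those 3 were 0, beside 10.1%, 15.7% and 16.1% of all genes. In that model 1 member, Nmrk1, passed in Dose II against HFD, beside 5.68% of all genes. For the slope 1 member passed, where 246 of 8933 genes rose and 248 fell. On TPM, with a pseudocount of 1 or 0.1, 5 passed in Dose I against control and 1, Nadsyn1, in Dose II against HFD and 1 for the slope. On TPM with all 38 libraries 0, 1 and 2 passed in the comparisons with the controls and 1 for the slope. Correlated pairs of members went from 1 to 4 with all 38 libraries, and the 3 added pairs were negative. Other counts stayed within 1.5 times of the main one. DESeq2, RLE scaling, either filter, fits of only the groups compared and a threshold of 0.05 moved no count further. The fit of only the groups compared was not run for the slope, which holds no controls.

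Directions turned where the values were near 0, and for Nadk2 with the covariate. The cases given are not a full list. Against control, Nampt turned with the covariate to 0.044 at Dose I and 0.062 at Dose II. The slope of Nmnat1 on the NR dose, 0.0053 in the main fit, was -0.0027 with the covariate and -0.025 with the trend removed. With the length trend as a covariate, Nadk2 was at 0.21 at Dose I and 0.26 at Dose II against control, Nadsyn1 at 0.011 in HFD against control, and Nampt at 0.012 at Dose I and 0.030 at Dose II against HFD and 0.032 in HFD against control. With the trend removed by its fitted curve, Nampt was at 0.0077, 0.018 and 0.034 in the same comparisons and Nmnat1 at -0.046 at Dose II against HFD. Without a filter, Nampt was at 0.0027 at Dose I and 0.0088 at Dose II against HFD, and with 38 libraries at 0.0037 in HFD against control. On TPM with a pseudocount of 1, Nmnat1 was at -0.045 at Dose II, and Nmnat3 at -0.098 at Dose I and -0.023 at Dose II, against HFD. With all 38 libraries these 3 were the same, and Nmnat1 was at 0.032 in HFD against control. With a pseudocount of 0.1 they were at -0.046, -0.12 and -0.028. The causes were not tested. Over all genes, Dose I against HFD gave 17 calls by edgeR, and by DESeq2 56 that rose and 24 that fell. With 0 to 12 estimated counts per library, Nnmt was beyond what this depth can compare.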
